A study of Mus musculus with 60 samples.

Results

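The astrocyte and radial glia genes described here were Gfap, Aqp4, Aldoc, Agt, Slc25a18, Apoe, Slc1a3, Slc1a2, Gja1 and Rfx4, 10 genes that are used as markers of these glial cells. They were taken by name, as the rows of the array table whose single gene symbol was one of these, out of 19938 genes named by 21789 rows. Each gene had 1 row, so no choice between rows had to be made.

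The series measured RNA of the fetal brains of mice with the Affymetrix Mouse Gene 1.0 ST array. Dams of 4 labelled genotypes, all on a B6.129 background, received chlorpyrifos oxon (CPO, the metabolite of the insecticide chlorpyrifos that inhibits acetylcholinesterase) from gestational day 6 to day 17, and fetal brains were taken on day 18. The genotypes were KO, which lacks PON1, the paraoxonase that breaks CPO down, at 0, 0.50 and 0.75 mg/kg/d, and Q-tg (tgHuPON1Q192) and R-tg (tgHuPON1R192), which carry a human PON1 transgene, each without CPO and at 0.75 or 0.85 mg/kg/d. Wild type mice (WT) had the same doses as the transgenic mice, and each of the 12 groups had 5 arrays, 60 in all. The labels give neither the promoter of the transgenes nor whether mouse Pon1 is intact in those mice. Each array held the pooled RNA of the fetal brains of 1 dam. The dam is thus the replicate, and dams were picked by random numbers once those whose brain acetylcholinesterase lay far from their group had been removed. The deposited values are the authors' RMA signals on a log2 scale, where a difference of 1 is a doubling.

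The Pon1 row, which checks the genotype labels, split the arrays. It was at 5.67 or less on 15 arrays and at 9.72 or more on 45. On 10 arrays this went against the label: 5 of the 15 arrays labelled KO had a high Pon1 signal and 5 of the 45 labelled otherwise had a low one. Groups are therefore named by their labels throughout. The WT, Q-tg and R-tg arrays that went with their labels all had a high Pon1 signal. This row thus cannot show whether labels were exchanged among these genotypes or between doses. That limit also holds where the 10 arrays are left out.

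Radial glia are the stem cells that line the ventricles of the fetal brain. They make neurons first and, late in gestation, turn to making astrocytes, so a day 18 mouse brain holds radial glia and young astrocytes side by side. Astrocytes clear glutamate, move water and potassium, feed neurons and carry lipids. In whole-brain RNA, fewer cells of a type and less RNA per cell cannot be told apart.

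All 10 genes lay above 6.54, the level under which 95% of 1035 olfactory receptor rows fell, on 60 of 60 arrays. So did the means of the further markers Aldh1l1, Fabp7, Vim, Nes and Sox9, which with Gfap, Aqp4, Aldoc, Slc1a3 and Slc1a2 make up the 10 markers of these cells. Detection in RNA of the whole brain does not show in which cells a gene was read. Markers of other regions and cell types were above it too, with 4 of 5 for hindbrain and spinal cord, 3 of 3 for cortex, 4 of 4 for the oligodendrocyte lineage, 3 of 3 for neurons, 3 of 3 for microglia, 4 of 4 for vessels, 4 of 4 for meninges, 5 of 5 for choroid plexus and ependyma and 2 of 3 for pituitary.

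Promoter windows, from 250 bases before to 50 bases after a transcript start, were read from RefSeq (GRCm38.p6) for 9 of the 10 genes, in 13 windows. Aldoc and Rfx4 had 2 windows each and Apoe 3. The 4 shown are of genes whose levels moved closely together (Aldoc, Slc1a3) and of the pair that moved least together (Gfap, Gja1). Capitals mark matches, on either strand, to the STAT motif TTCNNNGAA, the CCAAT box, the RFX motif GTTGCC or the NFI motif TTGGCA. STAT and NFI factors are known to switch on astrocyte genes as neurogenesis ends.
Gfap, chr11:102897151-102897450, minus strand: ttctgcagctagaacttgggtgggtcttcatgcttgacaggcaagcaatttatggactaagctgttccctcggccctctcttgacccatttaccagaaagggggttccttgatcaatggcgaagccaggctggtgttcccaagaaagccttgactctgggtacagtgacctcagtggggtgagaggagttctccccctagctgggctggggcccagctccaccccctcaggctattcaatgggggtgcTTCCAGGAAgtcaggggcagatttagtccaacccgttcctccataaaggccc
Aldoc, chr11:78323948-78324247, plus strand: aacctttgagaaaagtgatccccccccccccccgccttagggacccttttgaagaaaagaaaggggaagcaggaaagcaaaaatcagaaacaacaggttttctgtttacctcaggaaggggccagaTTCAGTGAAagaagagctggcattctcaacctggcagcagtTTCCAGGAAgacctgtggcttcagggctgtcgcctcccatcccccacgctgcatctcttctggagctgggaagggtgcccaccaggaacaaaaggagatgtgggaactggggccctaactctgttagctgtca
Slc1a3, chr15:8710758-8711057, minus strand: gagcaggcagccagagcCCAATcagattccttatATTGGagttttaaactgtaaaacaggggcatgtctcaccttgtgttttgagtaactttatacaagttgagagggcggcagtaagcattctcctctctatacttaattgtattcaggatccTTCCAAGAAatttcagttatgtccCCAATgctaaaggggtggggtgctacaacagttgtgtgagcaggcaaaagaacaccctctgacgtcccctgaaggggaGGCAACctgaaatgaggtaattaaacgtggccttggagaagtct
Gja1, chr10:56377050-56377349, plus strand: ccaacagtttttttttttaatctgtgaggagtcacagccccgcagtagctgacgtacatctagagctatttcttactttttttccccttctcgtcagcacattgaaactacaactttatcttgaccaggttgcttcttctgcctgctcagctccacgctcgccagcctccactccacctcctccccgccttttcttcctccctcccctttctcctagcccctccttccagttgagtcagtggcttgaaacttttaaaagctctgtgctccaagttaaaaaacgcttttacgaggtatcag
The STAT motif was in 4 of the 13 windows (Agt, Aldoc, Gfap, Slc1a3) and in 8.3% of 32851 RefSeq windows of the same length. Of the windows shown all but that of Gja1 held it, while those of Slc25a18, Apoe, Slc1a2 and Rfx4 did not. The CCAAT box was in 2 (Rfx4, Slc1a3), against 37.41% of all windows. The RFX motif was in 2 (Slc1a3, Slc25a18), against 12.51%, and the NFI motif in 2 (Aldoc, Apoe), against 14.12%. The NFI match of Aldoc was in the window not shown, and its 2 STAT matches are in the one that is. The Gja1 window held none of these letters. These are matches of letters only.

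The genes differed in how much they varied between the pools. Aqp4, the water channel of astrocyte endfeet, ran from 7.98 to 9.005 over the 60 arrays, a 2.04-fold range with an SD of 0.24. That SD was larger than that of 99.5% of the 15611 rows that were not dim (mean at or above 6.54). Agt, the angiotensin precursor made by astrocytes in brain, ran from 7.68 to 8.61 (SD 0.17, 1.91-fold), and Gfap, the intermediate filament of astrocytes, from 7.20 to 7.92 (SD 0.16, 1.65-fold). The lipid carrier Apoe ran from 10.80 to 11.44 (SD 0.14), the mitochondrial glutamate carrier Slc25a18 from 7.78 to 8.48 (SD 0.14), and the glycolytic enzyme Aldoc from 10.67 to 11.17 (SD 0.12). The other 4 spanned smaller ranges. They were the transcription factor Rfx4 (7.75 to 8.20, SD 0.09), the glutamate transporters Slc1a3 (10.36 to 10.70, SD 0.09) and Slc1a2 (9.59 to 9.94, SD 0.08), and the gap junction protein Gja1 (10.06 to 10.33, SD 0.07, 1.20-fold). The median SD was 0.13 over the 10 genes and 0.09 over the rows that were not dim.

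Aqp4 shows how this spread sat inside the groups. In arrays labelled KO it was 8.69, 8.72, 8.26, 8.34 and 8.46 at dose 0, then 8.27, 8.15, 8.31, 8.39 and 8.31 at 0.50 mg/kg/d, then 8.77, 8.16, 8.41, 8.42 and 8.68 at 0.75. In Q-tg it was 8.31, 8.24, 8.21, 8.53 and 8.66 at dose 0, then 8.78, 8.60, 8.44, 8.88 and 8.83 at 0.75, then 8.08, 8.75, 8.72, 8.85 and 8.47 at 0.85. The Q-tg groups overlapped, and the 0.85 group held 1 array far below its other 4. In R-tg it was 8.67, 8.41, 8.72, 8.68 and 8.65 at dose 0, then 8.69, 8.43, 8.32, 8.38 and 8.42 at 0.75, then 8.49, 8.36, 8.41, 8.64 and 8.36 at 0.85. In WT it was 8.29, 8.32, 8.27, 8.90 and 8.78 at dose 0, then 8.43, 8.65, 8.89, 9.005 and 8.62 at 0.75, then 8.96, 8.52, 8.92, 8.58 and 7.98 at 0.85. The WT arrays at dose 0 ran from 8.27 to 8.90 on their own, and every WT group overlapped the others. The 2 lowest arrays, at 7.98 (WT at 0.85) and 8.08 (Q-tg at 0.85), were among the 5 arrays not labelled KO whose Pon1 signal was low.

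**Figure D1:**
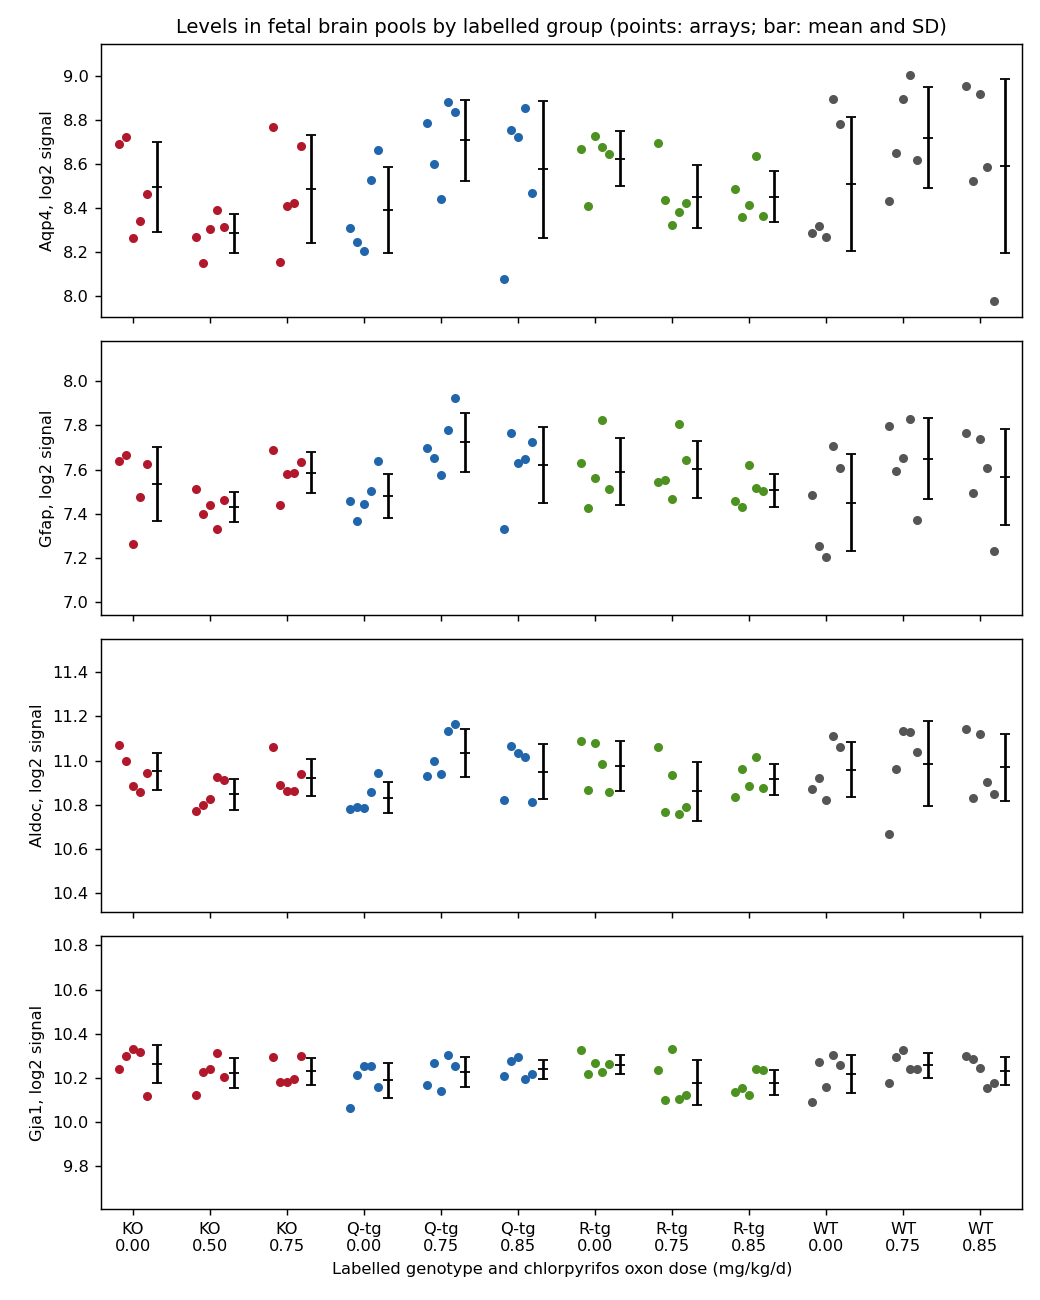
Log2 signal of Aqp4, Gfap, Aldoc and Gja1 (vertical axes, each spanning the same number of log2 units) by labelled genotype and CPO dose in mg/kg/d (horizontal axis), with 1 point per array and a bar for mean and SD (n = 5). Groups of the same labelled genotype overlap. Across genotypes some do not: Aqp4 in KO at 0.50 ends at 8.39, below all arrays of Q-tg at 0.75 (from 8.44). Aqp4 spreads from 7.98 to 9.005 and Gja1 from 10.06 to 10.33.

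Ordered by group mean, Aqp4 had 8.29 ± 0.09 (KO at 0.50) and 8.39 ± 0.20 (Q-tg at 0) at the low end, and 8.71 ± 0.18 (Q-tg at 0.75) and 8.72 ± 0.23 (WT at 0.75) at the high end (SD, n = 5 each). The other 8 means lay between 8.45 and 8.62, and each step between neighbours in this order was smaller than the larger of their SDs. The SD within groups was 0.23, against 0.24 over all 60 arrays.

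The 10 genes moved together from pool to pool. All 45 pairs had a positive Pearson r over the 60 arrays, with a median of 0.61, and 43 passed a permutation test after Benjamini-Hochberg adjustment over the 45 pairs (100000 resamples, two-sided). Spearman's rho gave the same number of pairs. The 10 genes were chosen with earlier results of these data known, so these counts are not an independent test. For comparison, each gene's median r with the rows that were not dim, the 10 genes left out, was between -0.03 and 0.18. Positive and negative r can cancel in that median. The median absolute r of each gene with these rows was between 0.14 and 0.25. The closest pair was Aqp4 and Apoe, with r = 0.92 and rho = 0.91 (permutation p = 1e-05 for both, the smallest that 100000 resamples can give, and adjusted p = 1.61e-05), and r stayed at 0.92 without the 2 arrays farthest from the median. Aqp4 with Aldoc had r = 0.80, Aldoc with Slc25a18 0.80, Slc1a3 with Slc25a18 0.78 and the 2 glutamate transporters Slc1a3 and Slc1a2 0.77.

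Gfap and Gja1 stood at the edges of this pattern. Gfap followed Aqp4 (r = 0.74) and Apoe (r = 0.74), but its r with Gja1 was 0.07 (permutation p = 0.605, adjusted p = 0.605) and with Rfx4 0.16 (permutation p = 0.233, adjusted p = 0.238). Gja1 was closest to Rfx4, with r = 0.60. With group means subtracted the median r over the 45 pairs was 0.62, about as large as with them.

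Since the Pon1 signal falls into separate clusters, the pairs were also taken within each. Over the 45 arrays with high Pon1 the median r was 0.67 and 43 pairs passed, as over all arrays. Over the 15 with low Pon1 it was 0.41 and 3 pairs passed, with Aqp4 and Apoe at r = 0.80 (permutation p = 0.00034) and Gja1 and Gfap at r = -0.43 (permutation p = 0.11).

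**Figure D2:**
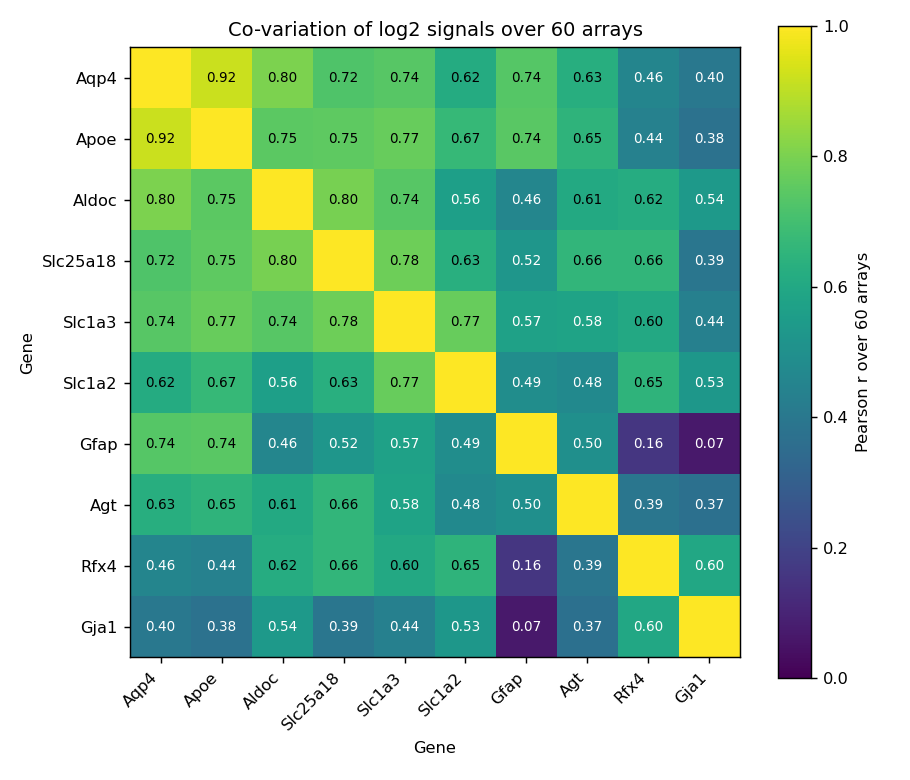
Pearson r of the log2 signals over 60 arrays for each pair of the 10 genes (both axes: gene, colour: r from 0 to 1, printed in each cell). Aqp4, Apoe, Aldoc, Slc25a18 and Slc1a3 form the block of high values, and the lowest value is that of Gfap with Gja1 at 0.07.

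Other genes that followed the 10 were searched among 14174 genes that were not dim, by r with the mean of the standardised profiles of the 10. The 8 highest were Sparcl1 (0.91), Slc6a11 (0.90), Kcnk9 (0.89), Slc4a4 (0.87), Adcy8 (0.86), Ccdc85a (0.86), Slc6a9 (0.86) and Eno2 (0.86), over 60 arrays. Sparcl1 is a secreted matrix protein of astrocytes, Slc6a11 a GABA transporter of astrocytes, and Slc4a4 a bicarbonate transporter that astrocytes use. Eno2 is the neuronal enolase and Slc6a9 a glycine transporter. These values are a description, since all genes of a point share 1 array and 1 pool of brains.

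The relation to Hoxa5 was examined because Hoxa5 is a homeobox gene of the hindbrain and spinal cord that the forebrain lacks. Its signal ran from 5.78 to 8.28 over the arrays (SD 0.71, a 5.69-fold range). Unlike the 10 genes, Hoxa5 was above the dim level of 6.54 on only 46 arrays. Its fold range and the slopes on it thus include arrays on which Hoxa5 read as dim. The largest gap between neighbouring arrays was 0.15, and the r of Hoxa5 with the 25th percentile of the array was 0.02 (permutation p = 0.871). In limma, with the labelled group in the model and adjustment over 21788 rows, the slope on Hoxa5 was positive and passed for 6 of 10 genes and negative for none that passed. Over all rows, 1.3% passed with a positive slope and 2.59% with a negative one. Since the 10 genes were chosen with earlier results of these data known, their count beside these shares is a description.

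Aqp4 had the steepest slope, 0.24 log2 units per log2 unit of Hoxa5 (SE 0.03, limma adjusted p = 6.1e-07). Aldoc followed with 0.13 (SE 0.02, limma adjusted p = 8.9e-08), Apoe with 0.12 (SE 0.02, adjusted p = 0.0012) and Slc25a18 with 0.10 (SE 0.02, adjusted p = 0.0063). Slc1a3 with 0.06 (adjusted p = 0.033) and Rfx4 with 0.05 (adjusted p = 0.041) also passed. Agt (0.10, adjusted p = 0.069), Gfap (0.08, adjusted p = 0.088), Slc1a2 (0.04, adjusted p = 0.24) and Gja1 (0.03, adjusted p = 0.18) had positive slopes that missed the threshold. Without the 10 arrays whose Pon1 signal went against the label, Aqp4 (0.18, adjusted p = 0.0016) and Aldoc (0.14, adjusted p = 5.3e-06) still passed. Apoe (0.08, adjusted p = 0.098), Slc25a18 (0.08, adjusted p = 0.20), Slc1a3 (0.05, adjusted p = 0.35) and Rfx4 (0.05, adjusted p = 0.21) then did not.

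**Figure D3:**
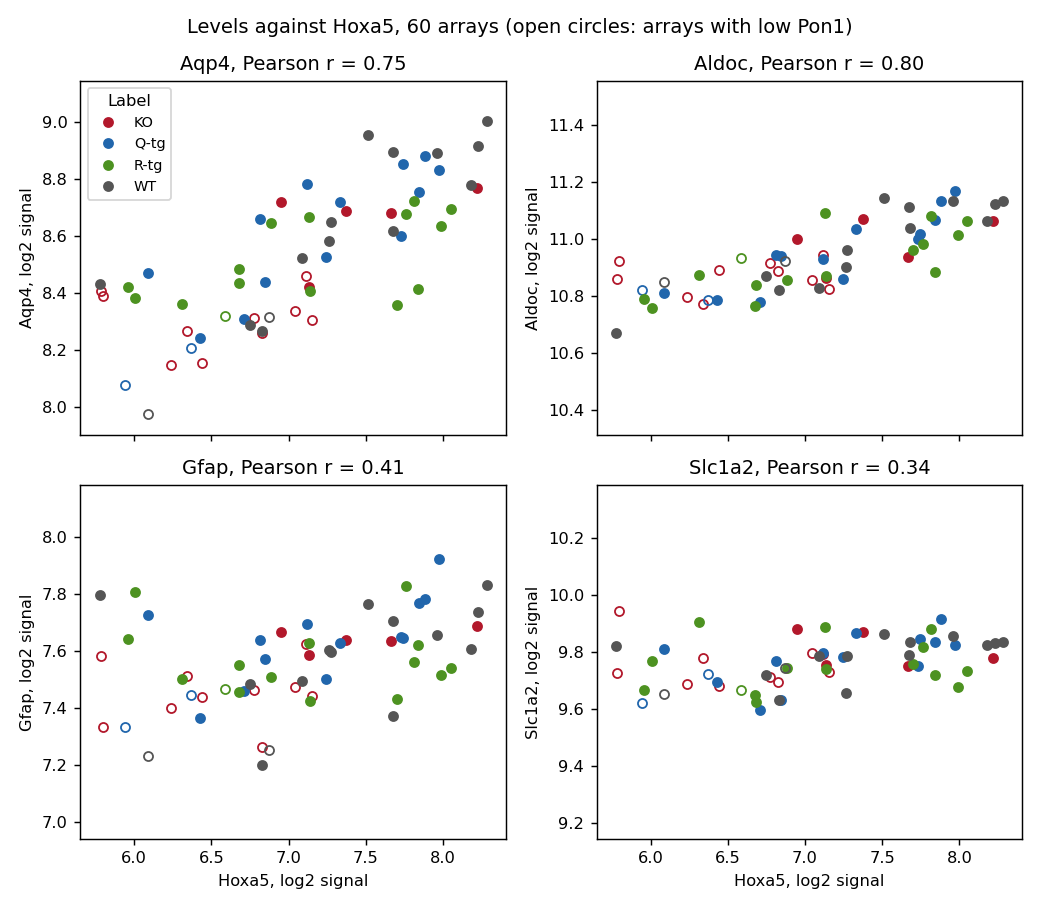
Log2 signal of Aqp4, Aldoc, Gfap and Slc1a2 (vertical axes) against log2 signal of Hoxa5 (horizontal axis), with 1 point per array, coloured by labelled genotype, and open circles for the 15 arrays with low Pon1. Aqp4 (r = 0.75) and Aldoc (r = 0.80) climb with Hoxa5, while Gfap (r = 0.41) and Slc1a2 (r = 0.34) do so loosely.

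As correlations over the 60 arrays, Aldoc had r = 0.80 (rho 0.80) with Hoxa5 and Aqp4 r = 0.75 (rho 0.75), each with permutation p = 1e-05 and adjusted p = 0.0001 over the 20 relations computed. The lowest was Slc1a2 with r = 0.34 and rho = 0.41 (permutation p = 0.0078, adjusted p = 0.013), and all 10 relations with Hoxa5 passed. Leaving out the 2 arrays farthest from the median Hoxa5 gave r = 0.79 for Aldoc, 0.77 for Aqp4, 0.50 for Gfap and 0.34 for Gja1. Within the 45 arrays with high Pon1, Aldoc had r = 0.83 and Aqp4 r = 0.70 (permutation p = 1e-05 each), and Gfap r = 0.22 (permutation p = 0.151). Within the 15 with low Pon1 no gene passed, even unadjusted, the highest being Agt at r = 0.39 (permutation p = 0.155) and Aqp4 at r = 0.36 (permutation p = 0.191), over Hoxa5 values that ended at 7.15. There Slc1a3 had r = -0.23 (permutation p = 0.407) and Rfx4 r = -0.07 (permutation p = 0.791). Hoxa5 was 5.78 to 7.15 on the 15 arrays with low Pon1 and 5.78 to 8.28 on the other 45, and Aqp4 was 7.98 to 8.46 on the 15 and 8.24 to 9.005 on the 45. Low Pon1 thus went with the low end of both. The median of Hoxa5 was 6.44 on the 15 arrays, under the dim level of 6.54, and 7.27 on the 45. All 15 lay below the median of the other 45 for Aqp4, Gfap, Aldoc and Apoe. For Slc25a18 and Slc1a3 13 did, for Slc1a2 12, for Rfx4 11, for Gja1 9 and for Agt 8. The part of low Pon1 in the r over all 60 arrays was not tested beyond these values. With Hoxa5, the 25th percentile and the group taken out, the median r over the 45 pairs was 0.50, between -0.06 and 0.86.

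Other region genes moved with Hoxa5 as well. Of 14 other hindbrain and spinal cord genes measured, 11 had a positive slope that passed and none a negative one, led by the glycine transporter Slc6a5 (0.68) and the homeobox genes Hoxb5 (0.53), Hoxb3 (0.34) and Hoxa2 (0.37). Of 10 cortex neuron genes, 8 had a negative slope that passed and none a positive one, among them Fezf2 (-0.16), Tbr1 (-0.09), Lhx2 (-0.09) and Neurod2 (-0.07), transcription factors of cortical neurons or their progenitors. The part of these region genes' differences in the slopes of the astrocyte genes was not tested.

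Among 24 other astrocyte genes, 9 had a positive slope on Hoxa5 that passed and none a negative one, with a median slope of 0.05 against -0.01 over all rows. They included the phospholipase Pla2g7 (0.24), Slc4a4 (0.12), Slc6a11 (0.12), the claudin Cldn10 (0.11), Sparcl1 (0.11) and Ndrg2 (0.07). Among 24 other radial glia and gliogenic genes, 3 rose and 2 fell with Hoxa5, with a median slope of 0.01. Hopx (0.08), the proteoglycan Bcan (0.09) and the membrane protein Ttyh1 (0.05) rose, and the cortical patterning gene Emx2 (-0.12) and the filament gene Nes (-0.10) fell. Of the other cell types, 4 of 12 choroid plexus and ependyma genes rose with Hoxa5 (Kcnj13, Ttr, Clic6, Sostdc1), as did 2 of 8 oligodendrocyte lineage genes (Mbp, Cnp), 2 of 10 neuron genes (Nefm, Nefl) and 1 of 12 vascular genes (Slco1a4), and 0 of 9 meninges, 0 of 8 microglia and 0 of 7 pituitary genes. None of these fell past the threshold.

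The 25th percentile of all values of an array, a measure of how high its dim rows read, ran from 5.92 to 6.26. It was related to far more rows than Hoxa5: 35.7% passed with a positive slope and 35.1% with a negative one. Of the 10 genes, 2 passed, both negative: Gja1 with -0.48 log2 units per log2 unit (SE 0.12, limma adjusted p = 0.00068) and Agt with -0.70 (SE 0.31, adjusted p = 0.039). With each array centred on its median 7 of the 10 passed, and with Hoxa5 in the model 4 did. Only Gfap had a positive slope (0.39, SE 0.28, adjusted p = 0.20), and the median was -0.28 against -0.09 over all rows.

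Without the 10 arrays, Gja1 had -0.47 (adjusted p = 0.0018) and Agt -0.64 (adjusted p = 0.079). Gja1 had r = -0.51 and rho = -0.50 with the percentile (permutation p = 3e-05 and 7e-05, adjusted p = 0.0001 and 0.00023), and r = -0.45 without the 2 farthest arrays. Rfx4 had r = -0.39 (permutation p = 0.0024, adjusted p = 0.0053). Its rho was -0.25 (permutation p = 0.0515), and its r was -0.24 without the 2 farthest arrays, weaker than over all 60. Its limma slope was -0.29 (adjusted p = 0.081), and it passed with the replicate number as a block (adjusted p = 0.026), with Hoxa5 in the model (adjusted p = 0.030) and with median centring (adjusted p = 0.00091). Over the 45 arrays with high Pon1 Rfx4 had r = -0.45 (permutation p = 0.00147). Agt had r = -0.31 (permutation p = 0.0153, adjusted p = 0.024) and rho = -0.24 (permutation p = 0.0612). The part of the percentile in the levels of Gja1 was not tested.

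**Figure D4:**
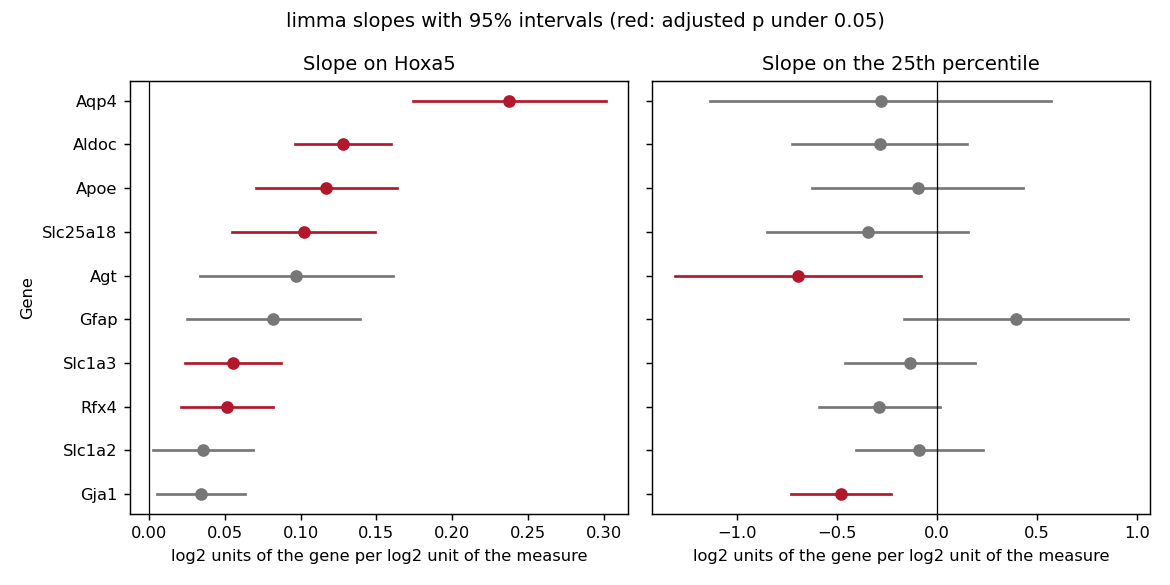
limma slopes of the 10 genes on Hoxa5 and on the 25th percentile of each array (horizontal axes, log2 units per log2 unit), with 95% intervals and genes listed down the vertical axis, red where the adjusted p is under 0.05. On Hoxa5 all 10 slopes are above 0, from 0.03 to 0.24, and on the percentile 9 of 10 are below 0.

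No gene of the 10 differed among the labelled groups past the threshold. In the moderated F test over the 12 groups, 0 of 10 genes and 0 of 21789 rows (0%) passed. Rfx4 had the smallest p of the 10 (limma adjusted p = 0.95). Unadjusted, it was the only one of them under 0.05, where 4.84% of all rows were. In the 8 contrasts of a CPO dose with dose 0 within a labelled genotype and the 3 contrasts of a genotype with WT at dose 0, 0 of 10 genes passed and 0% of rows did. Without adjustment, limma put 6 of the 10 under 0.05 in Q-tg at 0.75, 3 in R-tg at 0.75, 2 in R-tg at 0.85, 1 in WT at 0.75 and 0 in each of the other 7 contrasts. Over all rows the shares under 0.05 were 2.35% in Q-tg at 0.75, 5.31% in R-tg at 0.75, 4.86% in R-tg at 0.85 and 10.2% in WT at 0.75.

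The largest median difference was in Q-tg at 0.75 mg/kg/d, where all 10 genes were higher than at dose 0, with a median of 0.18 log2 units against 0.00 over all rows. Of all rows, 52.5% were higher. Gfap was 7.70, 7.65, 7.57, 7.78 and 7.92 in Q-tg at 0.75, against 7.46, 7.37, 7.44, 7.502 and 7.64 in Q-tg at 0. Its difference was 0.24 (SE 0.09, limma adjusted p = 0.99999), and 4 of 5 treated arrays lay above all 5 untreated ones. Aqp4 differed by 0.32 (SE 0.14, 95% interval 0.04 to 0.60), Aldoc by 0.20 (SE 0.07) and Slc25a18 by 0.17 (SE 0.08), with adjusted p = 0.99999 each. Slc25a18 was 8.07, 8.08, 8.04, 8.21 and 8.23 in Q-tg at 0.75, against 7.93, 7.98, 7.92, 7.98 and 7.97 at 0, so the groups did not overlap. It was the only one of the 10 genes for which they did not, and over all rows 0.509% were higher and 0.399% lower without overlap.

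Hoxa5 was also higher there, at 7.51 ± 0.50 in Q-tg at 0.75 and 6.71 ± 0.35 in Q-tg at 0 (SD, n = 5 each). With Hoxa5 as a covariate the Aqp4 difference was 0.13 (SE 0.10), that of Aldoc 0.10 (SE 0.05), of Apoe 0.10 (SE 0.07) and of Gfap 0.18 (SE 0.09). Without the 10 arrays, 1 of which was in Q-tg at dose 0, the differences were 0.27 for Aqp4 and 0.23 for Gfap, and the median was 0.17. At 0.85 all 10 genes were again higher in Q-tg, by a median of 0.11, or 0.14 without those arrays (Aqp4 0.19 with them and 0.26 without), and none had p under 0.05 unadjusted. Of all rows, 58.7% were higher in Q-tg at 0.85.

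R-tg went the other way in sign. At 0.75 mg/kg/d, 9 of 10 genes were lower than at dose 0, with a median of -0.12 against -0.02 over all rows, and at 0.85 all 10 were lower, with a median of -0.10. Of all rows, 41.0% were higher at 0.75 and 45.1% at 0.85. Leaving out the 10 arrays gave the same medians to 2 decimals. Of the R-tg arrays, only replicate 3 at 0.75 is among the 10. The contrast at 0.85 thus compared the same arrays as before, and its median could not move by this omission. Slc1a2 and Gja1 differed by -0.12 and -0.08 in R-tg at 0.75, farther from 0 than their 0.07 and 0.04 in Q-tg at 0.75. Rfx4 was 7.90, 7.75, 7.90, 7.79 and 7.84 in R-tg at 0.75, against 8.20, 7.98, 8.04, 7.99 and 8.02 at 0. The groups did not overlap, the difference was -0.21 (SE 0.05, 95% interval -0.31 to -0.11), and it ranked 2 by p over all rows with an adjusted p of 0.90. Slc25a18 was 8.003, 7.95, 7.98, 7.99 and 7.98 in R-tg at 0.75, against 8.48, 8.02, 8.18, 8.21 and 8.07 at 0. These groups did not overlap either (difference -0.21, SE 0.08, adjusted p = 0.90). These were 2 of the 10 genes, and over all rows 0.61% were lower and 0.078% higher without overlap. Hoxa5 was 6.66 ± 0.85 in R-tg at 0.75 and 7.35 ± 0.42 in R-tg at 0, and with it as a covariate Rfx4 differed by -0.17 (SE 0.05) and Slc25a18 by -0.14 (SE 0.07), while Aqp4 differed by -0.01 in place of -0.17.

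In WT at 0.75 all 10 genes were higher than at dose 0, by a median of 0.09, with Gfap at 7.65 ± 0.18 in WT at 0.75 and 7.45 ± 0.22 in WT at 0 (difference 0.20, SE 0.09, adjusted p = 0.47). At 0.85 the median was 0.02, with 8 of 10 positive. Of all rows, 52.2% were higher in WT at 0.75 and 56.4% in WT at 0.85. Without the 10 arrays the WT medians were 0.07 at 0.75 and 0.04 at 0.85, with 10 and 9 of 10 positive. In arrays labelled KO the medians were -0.10 at 0.50, with 1 of 10 positive, and -0.02 at 0.75. Of all rows, 50.2% were positive at 0.50 and 37.0% at 0.75, where the median over all rows was also -0.02. All 5 arrays of KO at 0.50 had low Pon1, against 3 of 5 at dose 0. Without the arrays that went against the label, Aqp4 differed by -0.07 between KO at 0.50 and KO at 0, in place of -0.21. The medians were then -0.01 at 0.50, with 5 of 10 positive, and -0.02 at 0.75. Of KO at 0.75 only replicates 2 and 3 were left, so its median rests on few arrays. Between genotypes at dose 0 the medians were 0.04 for KO minus WT, -0.05 for Q-tg minus WT and 0.08 for R-tg minus WT. Of all rows, 61.4%, 52.5% and 58.2% were positive in the same order. Without the 10 arrays the medians of the 10 genes were -0.05, -0.08 and 0.06 in that order. KO minus WT then turned sign for 5 of 10 genes, with 3 positive in place of 8: Gfap differed by -0.04 in place of 0.08, Slc25a18 by -0.08 in place of 0.05, Apoe by -0.15 in place of 0.03, and Slc1a3 and Rfx4 turned too, while Aqp4 differed by -0.20 in place of -0.02. None of these differences passed (smallest limma adjusted p = 0.81). They compare the 3 arrays of KO at 0 with low Pon1 with WT at 0 without its replicate 2.

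**Figure D5:**
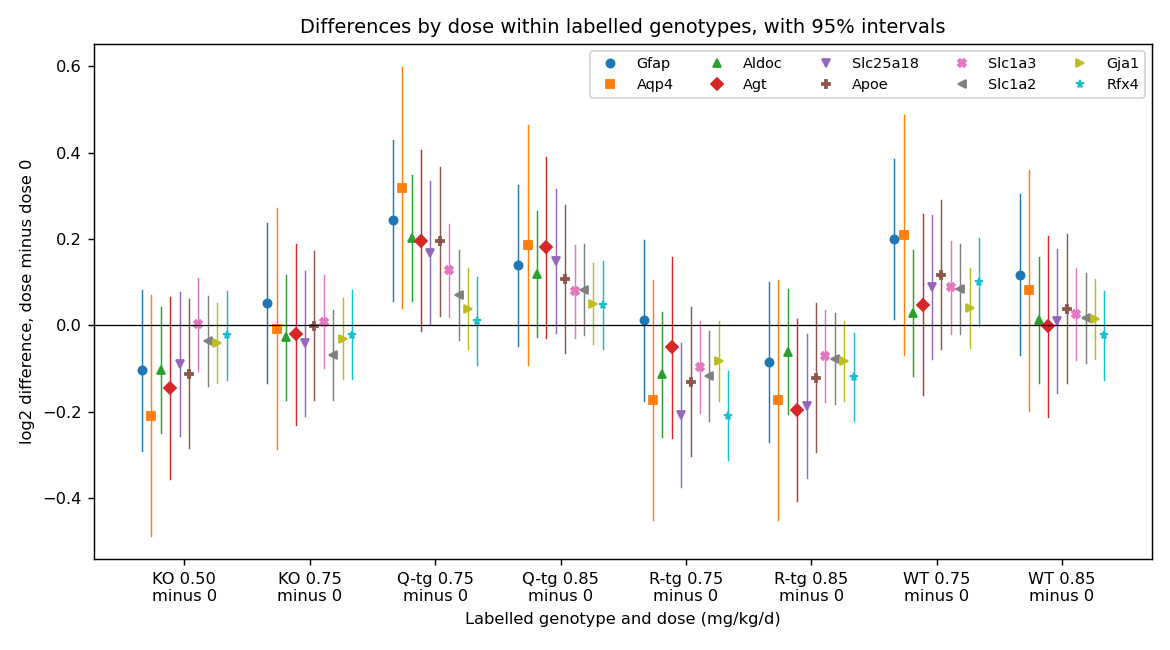
Log2 difference of each CPO dose minus dose 0 (vertical axis) for the 10 genes in the 4 labelled genotypes (horizontal axis, doses in mg/kg/d), with 95% intervals from limma. The points of Q-tg lie above 0 and those of R-tg mostly below, and no difference passed after adjustment over all rows.

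Doses of a genotype share their dose 0 arrays, and the contrasts with WT share the WT arrays, so a common sign between them is not independent. The 10 genes also moved together over the arrays, so a common sign among them does not count as 10 separate observations. The difference of the responses was tested itself. At 0.75 the response of R-tg minus that of WT was negative for all 10 genes, with a median of -0.20 against -0.02 over all rows. Of all rows, 43.5% were positive. Rfx4 had -0.31 (SE 0.07, limma adjusted p = 0.28) and Slc1a2 -0.20 (SE 0.07, adjusted p = 0.31). In this contrast 0 of 10 genes and 0.00459% of rows passed, and 5 of the 10 genes and 13% of rows had p under 0.05 unadjusted. In the other 4 such contrasts 0 of 10 genes and 0% of rows passed (unadjusted, 1 gene and 7.59% of rows were under 0.05 in KO at 0.75 and 0 genes in the others), with medians of -0.12 (KO at 0.75), 0.06 (Q-tg at 0.75), 0.07 (Q-tg at 0.85) and -0.13 (R-tg at 0.85), each minus WT. Without the 10 arrays the median for R-tg at 0.75 was -0.18, and those of the other 4 were -0.09, 0.09, 0.08 and -0.17 in the same order. For KO at 0.75 only replicates 2 and 3 were then left.

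The other astrocyte genes, a list also chosen with earlier results of these data known, gave the same counts, 0 of 24 in each contrast. Several of them moved with the 10 genes over the arrays, such as Sparcl1 (r = 0.91 with the mean profile). A sign they share with the 10 genes is thus a description and not a separate observation. At 0.75 in Q-tg 23 of 24 were higher than at dose 0, with a median of 0.09, led by Pla2g7 at 0.31 (SE 0.12, adjusted p = 0.99999), and in R-tg 2 of 24 were higher, with a median of -0.07. Of all rows, 52.5% were higher in Q-tg at 0.75 and 41.0% in R-tg at 0.75. Other radial glia and gliogenic genes had a median of -0.01 in Q-tg at 0.75, with 11 of 24 higher.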

How the data were processed

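The deposited values are log2 signals per transcript cluster, which the authors computed from the scans by RMA (oligo, R 2.15.1, per the submitters' processing notes). They were used as deposited. Of 28858 rows on 60 arrays, 21789 carry exactly 1 gene symbol in GEO's platform annotation, 1621 several and 5448 none. Array medians lay between 7.38 and 7.47, and the number of arrays limits the precision. No 2 arrays held identical values.

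limma 3.58.1 in R 4.3.3 was fitted to the 21789 rows with the 12 labelled groups as 1 model over 60 arrays, and with the group plus Hoxa5 or the 25th percentile for the slopes. The Hoxa5 row was left out of its own slope fit. Tests were two-sided, adjusted by Benjamini-Hochberg over all rows of a comparison, with a threshold of 0.05. Correlations and their 100000 resamples were computed with numpy 2.4.6, and the ranks for Spearman's rho with scipy 1.17.1. The fits and correlations were tested on simulated data. p-values measure the spread between the pools of different dams.

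The 10 genes and all gene lists were chosen with earlier results of these data known. Named were the 10 genes, Hoxa5 and Pon1, the 8 genes closest to the mean profile, and of each described list those that passed, at most 6 in a direction by smallest p, or, where fewer than 4 passed, the 4 with the largest absolute value. Examples in a sentence were taken from these. Alternatives were array weights, median centring, a variance prior with trend, dim rows left out, the replicate number as a block, Hoxa5 or the percentile as covariate, only the groups of a contrast, Spearman's rho, omitting the 10 arrays and omitting every array once. Splits by Pon1 signal and the joint removal of group, Hoxa5 and percentile were chosen after seeing the data.

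Replicate numbers did not pair the arrays: over 330 pairs with the same number in different groups, the median correlation of deviations was -0.01 (-0.55 to 0.65), and 8 of 60 arrays were closest to their own number.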

Additional observations from a re-analysis of the deposited data

Results flagged for a closer look

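Of 120 sets of 5 arrays (10 genes in 12 groups), 8 held an array whose gap to its nearest neighbour exceeded Dixon's 95% critical value, 6.67%, and chance gives about 1 in 20. Aqp4 was 8.408 in replicate 2 of R-tg at 0, below 8.65 to 8.72 in the others. Agt was 8.435 in replicate 4 of WT at 0, above 7.99 to 8.12. Slc1a3 was 10.36 in replicate 3 of KO at 0, below 10.52 to 10.55, 10.57 in replicate 1 of KO at 0.75, above 10.49 to 10.50, and 10.49 in replicate 1 of WT at 0.75, below 10.59 to 10.62. The KO array at 0.75 is among those labelled KO with a high Pon1 signal. Slc1a2 was 9.621 in replicate 1 of Q-tg at 0.85, below 9.81 to 9.86, and this array is among those whose low Pon1 signal goes against the label. Rfx4 was 8.046 in replicate 4 of KO at 0.50, above 7.93 to 7.95, and 8.196 in replicate 1 of R-tg at 0, above 7.98 to 8.04.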

How the results depend on the processing

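No group test passed for any of the 10 genes in any setting run. The counts for the 12 groups, the CPO doses, the genotypes at dose 0 and the differences of responses stayed at 0, and over 3490 refitted values the lowest adjusted p was 0.075. The sign of a difference turned in 162 of these, in 53 of the 160 differences, while no slope on Hoxa5 changed sign in 680 and 3 of 680 on the 25th percentile did. The count of slopes on Hoxa5, 6 of 10, was 10 with array weights, 2 without the 10 arrays that went against their label, and 4 to 7 when 1 array was left out. The count on the 25th percentile, 2, was 1 with array weights, 7 with each array centred on its median, 1 without the 10 arrays, 4 with Hoxa5 and the percentile in 1 model, and 1 to 3 when 1 array was left out. The causes of these moves were not tested. Of the correlations, 43 of 45 pairs passed in each fit with 1 array left out, and 12 to 14 of the 20 relations with Hoxa5 or the percentile, against 13. Over the 15 arrays with low Pon1, 3 pairs and 0 relations passed, and fewer arrays went into those. With the replicate number as a block, which does not pair these arrays, 4 slopes on Hoxa5 passed (Slc1a3 and Rfx4 were at adjusted p = 0.055 and 0.054), 3 on the percentile, 43 pairs and 13 relations, and 0 in each group test. Another row per gene was not run, since each gene has 1.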

Other observations

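Genes that ran against the mean profile of the 10 genes over the 60 arrays were looked up after their values were seen. The lowest r were those of Neurod6 (-0.61), a transcription factor of cortical projection neurons, Sox11 (-0.59), a factor of newborn neurons, and Nfib (-0.58). Nfib is itself on the list of other radial glia and gliogenic genes. The mean profile itself had r = 0.65 with Hoxa5 and -0.26 with the 25th percentile. Ranks 9 to 16 of the genes that followed the profile were, in order, Sv2c (0.85), a synaptic vesicle protein, the tubulin Tuba4a (0.85), Sfxn5 (0.85), Ndrg2 (0.84), Brinp1 (0.84), Map1a (0.84), a microtubule protein of neurons, Abat (0.83), which breaks down GABA, and the sodium pump subunit Atp1b2 (0.83), each over 60 arrays.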
